A study of Mus musculus with 12 samples.

Results

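The nuclear genes for subunits of respiratory complexes I to IV were examined in RNA-Seq of mouse cerebellum and cerebral cortex. Members were the protein-coding genes whose annotated name begins with Ndufa, Ndufb, Ndufc, Ndufs or Ndufv and a number, Sdha to Sdhd, every Uqcr gene, Cyc1, and the Cox4 to Cox8 genes. This gave 68 of the 55536 genes counted, with 37 assigned by name to complex I, 4 to complex II, 9 to complex III and 18 to complex IV. A further 7 genes or pseudogenes with such a name are not annotated as protein-coding and were left out. The libraries came from 1-month-old WT mice and homozygous Snx14-KO mice, 3 per genotype, and the labels give the same mouse numbers in both brain regions. The knockout is a germline frameshift allele made with Cas9 in C57BL/6J mice, so every cell type of both regions carries it. Each library was made from bulk tissue, in which fewer cells of a type and less RNA per cell cannot be told apart.

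The respiratory chain carries electrons from NADH and succinate to oxygen and pumps protons across the inner mitochondrial membrane. Complex I oxidizes NADH, complex II oxidizes succinate, complex III passes the electrons to cytochrome c, and complex IV reduces oxygen. All complex II subunits are nuclear genes, while the other complexes also contain subunits encoded in the mitochondrial genome. Neurons draw most of their ATP from this pathway, and several complex IV subunits exist as a widely expressed isoform and as isoforms best known from heart, skeletal muscle, lung or testis.

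The 12 libraries held 16672589 to 19887427 counts on genes. Snx14, the targeted gene, had 64.8 ± 1.89 CPM (counts scaled to the size of the library, normalized across libraries by edgeR's TMM method) in WT cerebellum and 10.8 ± 0.424 in Snx14-KO cerebellum, and 56.1 ± 3.26 and 8.04 ± 0.414 in cortex (SD, n = 3 each). Marker genes followed the region labels, with 12 of 12 Purkinje cell genes higher in WT cerebellum and 11 of 12 cortical excitatory neuron genes higher in WT cortex. All 37 genes of the mitochondrial genome, 13 of them protein-coding, are listed at 0 in every library, so the mitochondrially encoded subunits of complexes I, III and IV are not analysed here. Snx14-KO cerebellum 3 stood apart for the members and for microglial genes, and Snx14-KO cortex 2 for the members and for meningeal genes. Values with and without these libraries are given below.

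The 4 genes chosen to mark the complexes were all abundant in both regions. Ndufa1, an accessory subunit of complex I on chromosome X, had 90.5, 76.0 and 68.9 CPM in WT cerebellum and 38.9, 46.8 and 44.2 CPM in WT cortex. Sdha, the flavoprotein of complex II, had 487, 458 and 479 CPM in WT cerebellum and 361, 397 and 394 CPM in WT cortex. Uqcrc1, a core protein of complex III, had 297, 274 and 265 CPM in WT cerebellum and 229, 235 and 226 CPM in WT cortex. In each of these genes, the 3 WT cerebella lay above the 3 WT cortices. The same held for Cox4i1, the common form of complex IV subunit 4, with 694, 609 and 634 CPM in WT cerebellum and 491, 529 and 488 CPM in WT cortex.

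Summed over all 68 members, WT cerebella held 10636, 9878 and 9642 CPM, and WT cortices held 7209, 7865 and 7469 CPM. The lowest WT cerebellum was therefore above the highest WT cortex. The ratio of the mean sums was 1.34 for all members, 1.44 for complex I, 1.26 for complex II, 1.35 for complex III and 1.23 for complex IV. In Snx14-KO mice, the sums were 9973, 10046 and 8664 CPM in cerebellum and 8367, 6946 and 7943 CPM in cortex, a ratio of 1.23. The regions also did not overlap in Snx14-KO mice, but Snx14-KO cerebellum 3 was only slightly above Snx14-KO cortex 1.

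**Figure D1:**
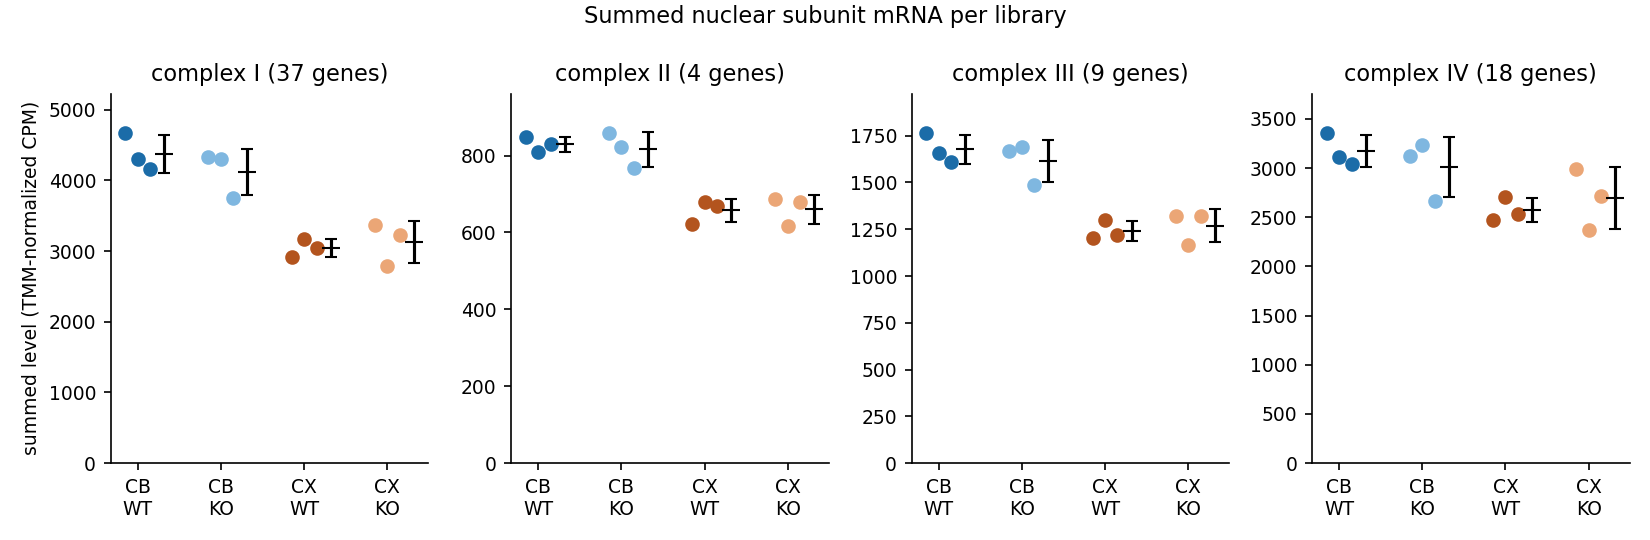
Summed TMM-normalized CPM of the members of each complex (y axes, starting at 0) in the 12 libraries, grouped by region (CB, cerebellum, blue; CX, cortex, orange) and genotype (WT, KO for Snx14-KO). Points are libraries and the black bars give mean ± SD of 3 mice. For complex I, the 6 cerebella lie between 3748 and 4668 CPM and the 6 cortices between 2794 and 3368 CPM.

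Per kilobase of exon, the members spanned a wide range. The highest levels in WT cerebellum were those of complex IV genes, led by Cox8a (592 FPKM), Cox6a1 (510 FPKM), Cox4i1 (417 FPKM) and Cox6b1 (317 FPKM). The same genes had 567, 504, 324 and 245 FPKM in WT cortex. The median gene of complex III (127 FPKM in WT cerebellum, 87.7 FPKM in WT cortex) was above that of complex I (69.7 and 51.6 FPKM). The median gene of complex II had 75.3 and 60.1 FPKM, and that of complex IV 91.7 and 87.2 FPKM. At the other end, 8 members averaged under 10 CPM. These were Cox4i2, Cox6a2, Cox6b2, Cox7a1, Cox7b2, Cox8b and Cox8c, which are the tissue-restricted isoforms of complex IV, and Ndufa4l2. Cox8c had no counts in any library.

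In WT mice, nearly every member had a higher normalized mRNA level in cerebellum than in cortex. Of the 67 members tested, 59 were higher in cerebellum and 2 lower at an adjusted p under 0.05 (edgeR's quasi-likelihood test, Benjamini-Hochberg adjustment over 18543 genes). Among all genes tested, 28.2% were called higher and 29.2% lower. The median log2 fold change was 0.50 over the members and 0.02 over all genes. With an absolute log2 fold change over 0.5 also required, 32 members were higher (19% of all genes) and 1 was lower (21.4%), or 33 in either direction (40.4%). The 3 cerebella lay entirely above the 3 cortices for 62 members (31.6% of all genes) and entirely below for 2 (32.8%). Of the 59 members called higher, 54 had a log2 fold change between 0.19 and 0.95, that is 1.14-fold to 1.93-fold, and 5 exceeded a log2 fold change of 1. Among the tested members, Cox6a2, Cox6b2, Cox7b2 and Cox8b passed the filter on low counts in all 3 libraries only of the region where they were high, a choice that favours a difference. Without these 4, a recount chosen after seeing the data, 56 of 63 members were called higher and 1 lower.

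Of the 37 members named for complex I, 33 were called higher and none lower. The nuclear core subunits, which carry the flavin and the iron-sulfur clusters or lie next to them, were all called, 7 of 7. Among them, Ndufs7, which holds the last cluster before ubiquinone, had the largest log2 fold change (0.61 ± 0.08 SE, adjusted p = 8.69e-05, edgeR), and Ndufs3 the smallest (0.22 ± 0.07 SE, adjusted p = 0.0192, edgeR). Among the others, Ndufs1 and Ndufv1 were both at 0.36 and Ndufv2 was at 0.50. Of the 28 accessory subunits, 25 were called higher. The largest value was that of Ndufv3, a small subunit beside the flavoprotein (0.95 ± 0.08 SE), followed by the membrane arm subunits Ndufb11 (0.93 ± 0.08 SE) and Ndufc2 (0.89 ± 0.07 SE). Ndufv3 had 105, 91.9 and 92.7 CPM in WT cerebellum and 45.1, 53.7 and 52.0 CPM in WT cortex. Ndufa4, named for complex I but now known as a complex IV subunit, had a log2 fold change of 0.75 ± 0.07 (SE). The members of complex I not called were Ndufb9 (0.05), Ndufa8 (0.16), Ndufa10 (0.17, adjusted p = 0.0508, edgeR) and the low-count Ndufa4l2 (0.58 ± 0.29 SE).

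All 4 subunits of complex II were called higher in WT cerebellum, and so were all 9 members of complex III. In complex II, the membrane anchors Sdhc (0.60 ± 0.07 SE) and Sdhd (0.43 ± 0.07 SE) had larger log2 fold changes than the flavoprotein Sdha (0.31 ± 0.06 SE) and the iron-sulfur subunit Sdhb (0.19 ± 0.06 SE, adjusted p = 0.0248, edgeR). These differences between subunits were not tested. The call of Sdhb was lost when 1 of 4 WT libraries was left out, cerebellum 1 or any cortex, with adjusted p values of 0.0502 to 0.103 (edgeR), and that of Ndufs3 without cerebellum 1 or 2 or cortex 1 or 3 (0.0594 to 0.0839). In complex III, the catalytic subunits Cyc1, which holds cytochrome c1, and Uqcrfs1, the Rieske iron-sulfur protein, had log2 fold changes of 0.58 ± 0.07 and 0.42 ± 0.07 (SE). The core protein Uqcrc1 had the smallest value of the complex (0.28 ± 0.06 SE) and Uqcrb, a ubiquinone-binding subunit, the largest (0.72 ± 0.07 SE).

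Complex IV was the least uniform complex, with 13 members called higher and 2 lower of 17 tested. These calls include Cox6b2, Cox7b2 and Cox8b (higher) and Cox6a2 (lower), which passed the filter mainly through the region where they were high. The widely expressed subunits split. Cox4i1 (0.37 ± 0.07 SE), Cox5a, Cox5b, Cox6b1, Cox6c, Cox7a2, Cox7b and Cox7c were all higher in cerebellum, with log2 fold changes of 0.37 to 0.52. Cox6a1 (0.02, 95% interval -0.18 to 0.22) and Cox8a (0.07, 95% interval -0.14 to 0.27) were not called, and their libraries overlapped. Cox6a1 had 399, 355 and 320 CPM in WT cerebellum and 339, 387 and 336 CPM in WT cortex. Cox7a2l, a relative of Cox7a2, was lower in cerebellum (-0.25 ± 0.06 SE, adjusted p = 0.00615, edgeR), with 118, 118 and 117 CPM against 132, 148 and 142 CPM. In its longest coding transcript, 9.90% of the 100-base windows also occur in a transcript of another gene.

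**Figure D2:**
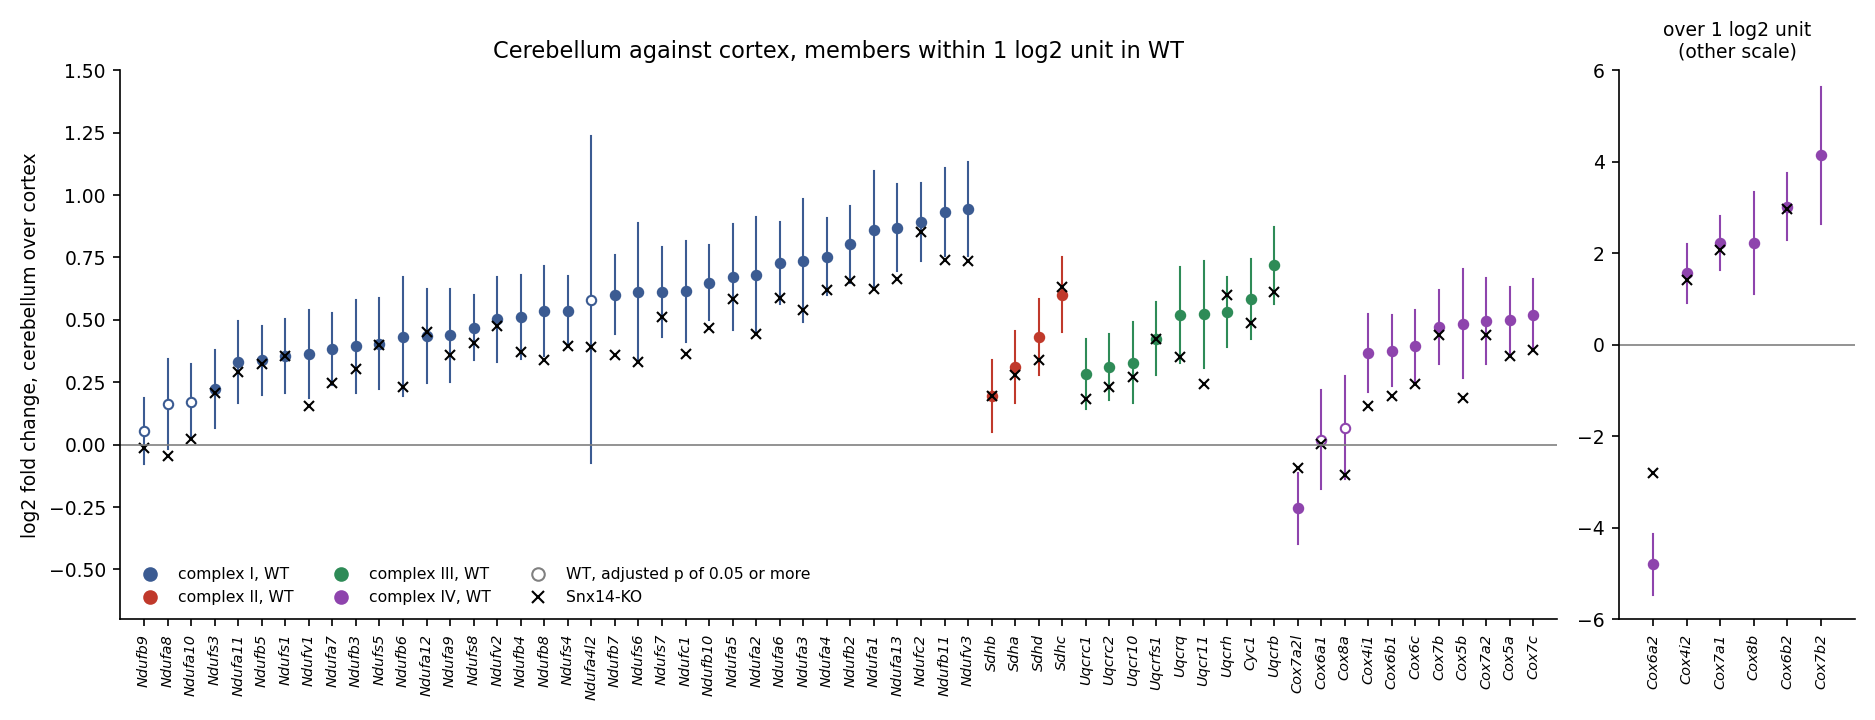
Log2 fold change of the tested members, 1 not drawn, cerebellum over cortex (y axis). Coloured points give WT mice with 95% intervals from edgeR's fit, open points had an adjusted p of 0.05 or more, and crosses give Snx14-KO mice. In the left panel, 59 of the 60 members lie above 0 in WT mice, and the crosses of most members lie below the points. The right panel, on a wider scale, holds the 6 members beyond 1 log2 unit, of which Cox6a2 alone is lower in cerebellum.

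The tissue-restricted isoforms of complex IV had the widest regional values, which are given here as a description, since 4 of them passed the filter mainly through 1 region. Cox6a2, the heart and skeletal muscle form of subunit 6a, had 3, 6 and 3 counts in WT cerebellum and 110, 121 and 120 counts in WT cortex. Its fitted log2 fold change was -4.80 ± 0.30 (SE). It made up 1.83% ± 0.190 of the summed FPKM of Cox6a1 and Cox6a2 in WT cortex and 0.0651% ± 0.0309 in WT cerebellum (SD, n = 3). Cox6a2 was thus the only isoform of these pairs that was higher in cortex. Its gene (chromosome 7, 128205435 to 128206387, minus strand, GRCm38) shares 10.3% of its exon bases with Itgad on the other strand, and Itgad had 1 to 20 counts per library.

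The other restricted isoforms were higher in WT cerebellum. Cox6b2, the testis form of subunit 6b, had 127, 134 and 155 counts in WT cerebellum and 10, 13 and 29 in WT cortex, a log2 fold change of 3.01 ± 0.33 (SE). Cox7a1, the heart and muscle form of subunit 7a, had 144, 105 and 123 counts against 37, 17 and 27 (2.23 ± 0.26 SE). Cox4i2, the lung form of subunit 4, had 66, 57 and 56 counts against 30, 17 and 15 (1.56 ± 0.29 SE). In each of these genes, every WT cerebellum exceeded every WT cortex.

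Cox7b2 and Cox8b were rarer still. Cox7b2, a testis form of subunit 7b, had 35, 24 and 16 counts in WT cerebellum and 0, 1 and 3 in WT cortex. Cox8b, the heart and muscle form of subunit 8, had 16, 26 and 37 counts against 9, 6 and 2. Neither passed the filter in Snx14-KO mice. These isoforms stayed a small part of their pairs. Cox7a1 reached 6.43% ± 1.02 of the summed FPKM of Cox7a1 and Cox7a2 in WT cerebellum and 2.05% ± 0.830 in WT cortex (SD, n = 3), and no other isoform of the 6 pairs exceeded 2.15% on average in a WT group. Of 8 muscle and heart marker genes, 5 could be tested, and 1 was higher and 3 lower in WT cerebellum.

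**Figure D3:**
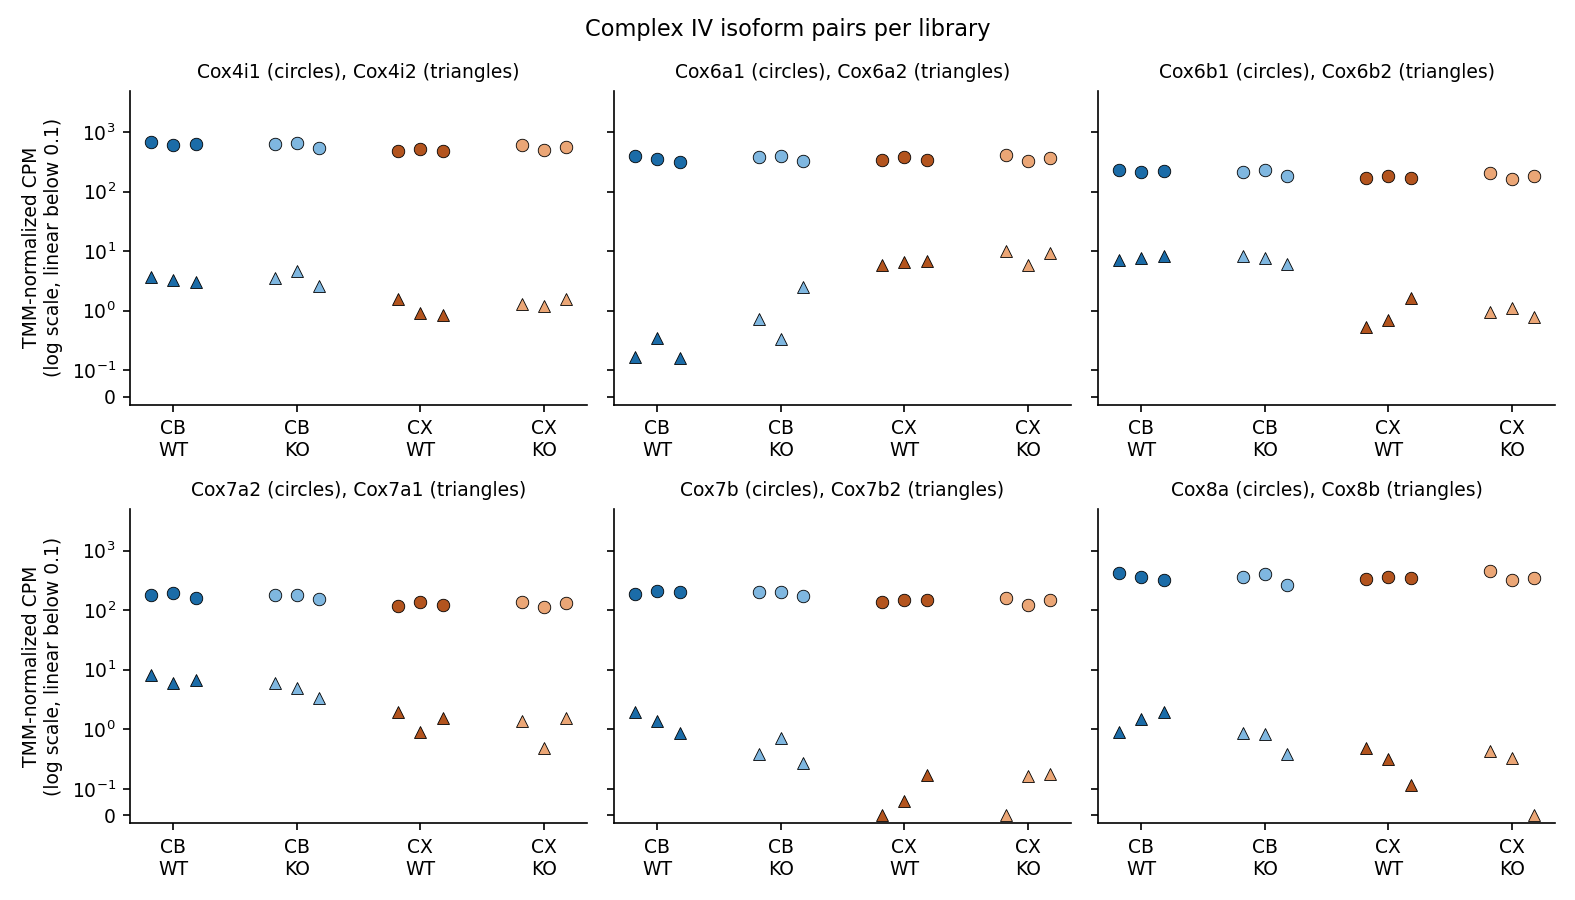
TMM-normalized CPM (y axis, log scale that is linear below 0.1) of the common (circles) and restricted (triangles) isoform of 6 complex IV subunits in each of the 12 libraries, by region (CB, cerebellum; CX, cortex) and genotype. The common forms lie above 100 CPM in every library. Cox6a2 rises from at most 2.54 CPM in cerebellum to at least 5.75 CPM in cortex, while the other restricted forms are higher in WT cerebellum.

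The same direction was seen in the Snx14-KO mice, which are other animals, with fewer members past the threshold. Of 65 members tested, 44 were higher in cerebellum (25.5% of all genes) and 1 lower (26.6%), or 45 in either direction (52.1%), with a median log2 fold change of 0.36. The cerebella lay entirely above the cortices for 41 members (29.8% of all genes) and entirely below for 1 (30.8%). With an absolute log2 fold change over 0.5 also required, 17 were higher (18.2%) and 1 lower (19.6%). By complex, 28 of 37, 3 of 4, 6 of 9 and 7 of 15 members were called higher. All 44 had also been called in WT mice, and 62 of the 65 members had the same sign in both genotypes. Of the restricted isoforms higher in WT cerebellum, those that could be tested were higher here too, with log2 fold changes of 2.97 ± 0.24 for Cox6b2, 2.07 ± 0.39 for Cox7a1 and 1.42 ± 0.29 for Cox4i2 (SE). Cox4i1 (0.16 ± 0.10 SE) and Uqcrc1 (0.18 ± 0.07 SE, adjusted p = 0.0551, edgeR) were no longer called, while Ndufa1 (0.62 ± 0.18 SE) and Sdha (0.28 ± 0.08 SE) were. Without Snx14-KO cerebellum 3, 49 members were called higher, with 8998 genes called in either direction, and without Snx14-KO cortex 2, 35 were, with 9272 genes, where the full comparison called 9668. In the latter case a further member was called lower, Cox7a2l at -0.20.

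Cox6a2 was the member called lower in Snx14-KO cerebellum, at a log2 fold change of -2.79 ± 0.52 (SE). It and Cox7a1 reached the filter's level in all 3 Snx14-KO libraries of only 1 region, and without both, 43 of 63 members were higher and none lower. Its counts were 15, 6 and 47 in Snx14-KO cerebellum and 160, 105 and 155 in Snx14-KO cortex. The 47 counts of Snx14-KO cerebellum 3 stood above the other cerebella, and without this library the log2 fold change was -3.93.

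Genes of related mitochondrial pathways, from lists drawn up with the members, differed in how far they followed them. Of 18 gene IDs of nuclear ATP synthase subunits and regulators, 16 were higher in WT cerebellum, with a median log2 fold change of 0.45, and 1 was lower, Atpif1, an inhibitor of the enzyme. Of 13 tricarboxylic acid cycle genes, 9 were higher and none lower, with a median of 0.31. Cycs, cytochrome c itself, and Ndufab1, the acyl carrier subunit of complex I that the name rule does not reach, were both higher (0.41 and 0.52). The assembly factors had medians of 0.07 for complex I, 0.01 for complexes II and III and 0.09 for complex IV. None of 15 complex I assembly factors was higher and 1 was lower (Ndufaf7, -0.33), 3 of 10 for complexes II and III were higher and 3 lower, and 6 of 21 for complex IV were higher and 2 lower. Among all genes tested, 5225 of 18543 were called higher and 5412 lower. The highest of the assembly factors was Pet100 (4.43), followed by Cox14 (0.94). The summed level of the complex IV factors, Pet100 included, was 1.66 times as high in WT cerebellum as in WT cortex. Their median was 1.06-fold, so the sum does not stand for the list. Overlap of the assembly factors with other genes, which can add reads to their counts, was not examined.

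Of 17 regulators of mitochondrial biogenesis, 7 were higher and 1 lower in WT cerebellum, led by the estrogen-related receptors Esrrb (2.82), Esrrg (1.96) and Esrra (0.95). Nrf1 (0.18) and Gabpa (0.21) did not pass the test. Of 14 outer membrane and import genes, 5 were higher and 2 lower, where the shares over all genes were 28.2% and 29.2%. Glycolytic genes went both ways, with 6 higher and 8 lower of 18 gene IDs, among them Hk2 (2.41) and Aldoc (1.40) on one side and Ldha (-0.90) on the other.

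The regional difference was also compared with genes of like transcript length, in classes set after the values were seen. Of 39 members with under 1500 exon bases, 38 were tested and 31 called higher in WT cerebellum, with a median log2 fold change of 0.53. For other protein-coding genes of that length and at least 50 CPM, 76 of 170 were called higher (44.7%), with a median of 0.15. The members were held to no such minimum, and the 8 averaging under 10 CPM all fell in this class, so levels were not alike. Cox6b2, Cox7b2 and Cox8b, counted among the calls, passed the filter mainly through cerebellum, where they were high. Of the 18 members of 1500 to under 3000 bases, 18 were called higher, against 35.4% of 687 other genes. Of the 11 members of 3000 bases or more, 10 were called higher, against 27.4% of 3926. Cytosolic ribosomal protein genes, which are also short and abundant, had 33 of 77 called higher (42.9%) and a median of 0.15, and mitochondrial ribosomal protein genes 32 of 78 (41.0%) and a median of 0.20. Cell types also differed between regions. The 12 microglial genes were all lower in cerebellum, and their summed level was 220 to 280 CPM in WT cerebellum and 508 to 583 in WT cortex, and that of 10 oligodendrocyte genes 11232 to 14615 and 7907 to 8190 CPM. Choroid plexus genes, 8 of 8 higher in cerebellum, ranged from 362 to 11028 CPM among WT cerebella. The part of cell makeup in the members' difference was not tested.

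The promoters of the members were searched for short motifs because so many members differed in the same direction. Windows from 250 bases before to 50 bases after the transcription start (RefSeq, GRCm38.p6) were at hand for 53 members, with 55 promoters. A match on either strand to the palindromic motif of NRF1, nuclear respiratory factor 1, was present in 12 of 55 (21.8%), against 4.60% of all 32851 promoters. The motif CCGGAAGT, bound by GABP and other ETS factors, was present in 4 (7.27%, against 3.89%), AAGATGGC, a core of YY1 motifs, in 7 (12.7%, against 2.75%), and TNAAGGTCA, of estrogen-related receptors, in 2 (3.64%, against 1.28%). Such matches are descriptions of the sequence, not sites shown to be bound. Ndufa1 and the restricted isoforms Cox6b2, Cox7a1, Cox7b2 and Cox8b had none of the 4 motifs in their windows. Members with an NRF1 match numbered 11, of which 9 were called higher in WT cerebellum with a median log2 fold change of 0.40. The other 42 in the table had a median of 0.51, with 39 called higher.

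The stretches of 30 bases that hold the NRF1 match nearest upstream of the start are shown for 6 of these genes, 5 with a higher level in WT cerebellum and Cox6a1, which was not called. They are given 5′ to 3′ on the strand of the gene, with the match in capitals.
Sdha: cgacacccgcgcgactcggtGCGCAAGCGC
Ndufa11: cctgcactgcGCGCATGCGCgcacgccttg
Ndufb4: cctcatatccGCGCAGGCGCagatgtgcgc
Ndufs5: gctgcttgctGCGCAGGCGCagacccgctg
Ndufs6: ccgccgactgctgtGCGCCTGCGCcggcac
Cox6a1: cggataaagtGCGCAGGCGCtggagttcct
Their positions in GRCm38.p6 are chr13:74350241-74350270 (Sdha, minus strand), chr17:56717692-56717721 (Ndufa11, plus strand), chr16:37654371-37654400 (Ndufb4, minus strand), chr4:123718265-123718294 (Ndufs5, minus strand), chr13:73328483-73328512 (Ndufs6, minus strand) and chr5:115349056-115349085 (Cox6a1, minus strand). Sdha and Ndufb4 each held 3 such matches and Cox6a1 held 2.

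Loss of Snx14 did not change any member past the threshold in cerebellum. None of the 66 members tested was called (edgeR, adjusted over 18201 genes), where the share over all genes was 0.00549%, a single gene, Snx14. At an unadjusted p under 0.05, 3 members (4.55%) were lower, against 2.37% of all genes, and none higher, against 5.78%. In either direction the share was 8.15% of all genes. DESeq2 called no member either, and 206 genes in all. Marker genes stayed close to WT. Sdha had 490, 458 and 448 CPM in Snx14-KO cerebellum (log2 fold change -0.02 ± 0.07 SE), Uqcrc1 had 295, 273 and 269 CPM (0.01 ± 0.07 SE), and Cox4i1 had 635, 656 and 542 CPM (-0.07 ± 0.09 SE). For Ndufa1, with 71.7, 86.2 and 54.8 CPM, the log2 fold change was -0.13 and its 95% interval ran from -0.47 to 0.21.

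The members with the smallest p values were isoforms of complex IV with low counts. Of these, Cox7b2 and Cox8b reached the filter's level in all 3 libraries only in WT, where they were higher, so that their p values are no support, and 1 of the other 64 members, Cox7a1, was lower at an unadjusted p under 0.05 by edgeR. Cox7b2 had 8, 13 and 5 counts in Snx14-KO cerebellum, all below the 16 to 35 of WT (log2 fold change -1.59 ± 0.47 SE). Cox8b had 0.860, 0.826 and 0.379 CPM, just below the 0.889 to 1.98 CPM of WT (-1.06 ± 0.44 SE). Cox7a1 had 5.92, 4.90 and 3.30 CPM, all below the lowest WT value of 6.05 CPM (-0.53 ± 0.22 SE, adjusted p = 0.571, edgeR). In these 3 genes the genotypes did not overlap, but none passed the adjustment. Without Snx14-KO cerebellum 3, the log2 fold changes were -1.34 for Cox7b2, -0.79 for Cox8b and -0.34 for Cox7a1, and the unadjusted p of the latter 2 rose to 0.113 and 0.116 (edgeR). The next were Cox7a2l (0.13 ± 0.06 SE) and Cox6c (-0.14 ± 0.06 SE). Cox6a2, with 3, 6 and 3 counts in WT and 15, 6 and 47 in Snx14-KO cerebellum, did not pass the filter on low counts in this comparison. The 3 Snx14-KO cerebella lay below the 3 WT cerebella for 8 members, against 6.32% of all genes, and above for 1, against 6.21%.

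Across the members, 10 of 66 had a positive log2 fold change in Snx14-KO cerebellum and 56 a negative one, with a median of -0.07 and a median over all genes of -0.0006. This shift rested largely on single libraries. Snx14-KO cerebellum 3 had the lowest level of all 6 cerebella for 57 of 66 members, and WT cerebellum 1 the highest for 41. Without Snx14-KO cerebellum 3, 31 of 66 members were higher and the median was -0.006. Without WT cerebellum 1, 22 of 67 were higher and the median was -0.04, and leaving out any of the other libraries gave medians of -0.12 to -0.08. ATP synthase genes had a like median of -0.07.

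Summed markers of cell types are given beside these values. In Snx14-KO cerebellum 3, the 12 microglial genes summed to 670 CPM, against 220 to 290 in the other 5 cerebella, and the 12 Purkinje cell genes to 10493 CPM, against 13026 to 14648. By genotype, the 12 granule cell genes summed to 3538, 4459 and 3626 CPM in Snx14-KO and 5119, 4820 and 4228 CPM in WT cerebellum. These sums overlapped between genotypes, while each of the 12 genes had a negative fitted value (median -0.27), 5 of them at an unadjusted p under 0.05 and none called by edgeR. The 11 meningeal fibroblast genes summed to 476 to 494 CPM in Snx14-KO and 174 to 346 CPM in WT cerebellum, without overlap. Of 12 cortical excitatory neuron genes, 8 were tested for genotype in cerebellum, with 5 positive and 3 negative (median 0.11). Of 7 interneuron genes tested, 4 were positive and 3 negative, the largest being Sst (3.34 ± 0.73 SE, adjusted p = 0.207, edgeR). The regional median of the cortical excitatory neuron genes, cerebellum over cortex, was -5.13 in WT and -4.19 in Snx14-KO mice. The part of these cell type genes in the levels of the members was not tested.

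**Figure D4:**
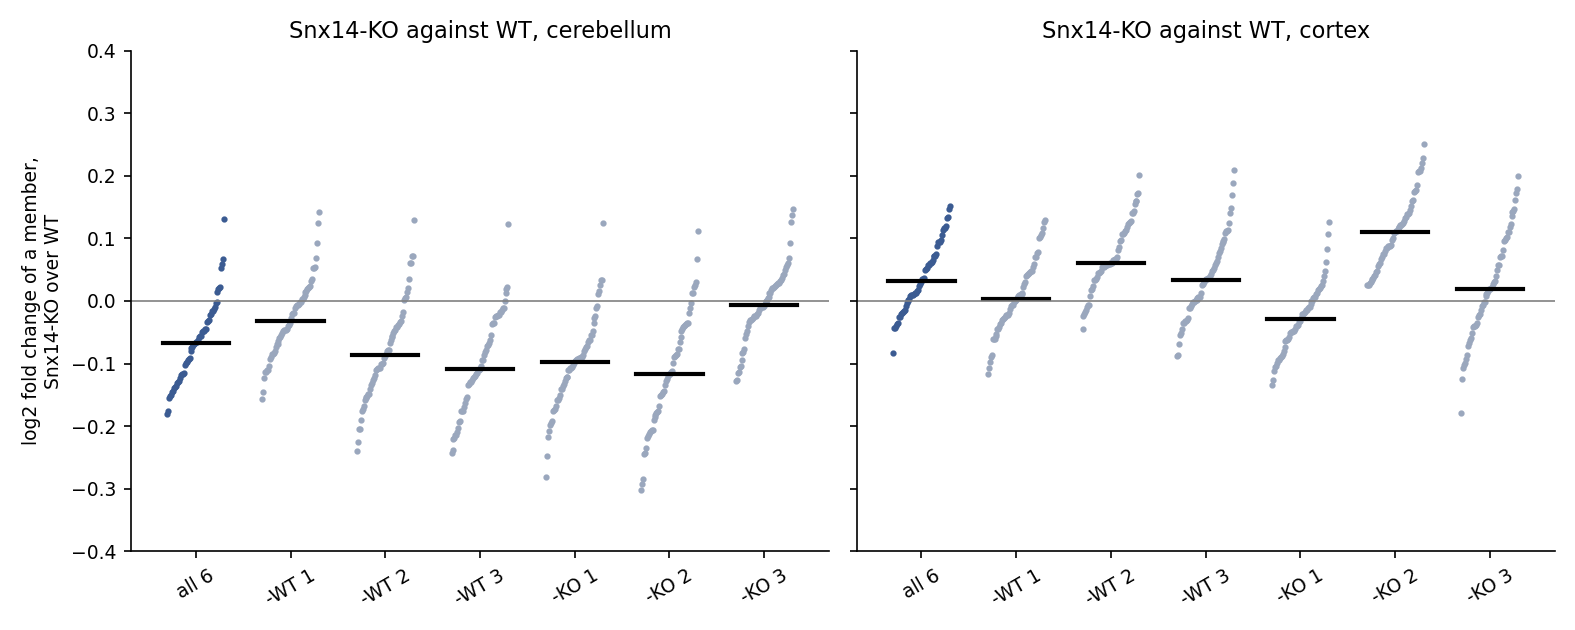
Log2 fold change, Snx14-KO over WT (y axis), of the 60 members that average at least 10 CPM, with all 6 libraries of a region and without each library in turn (x axis, the library left out after the minus sign). Points are members in increasing order and black lines are their medians. In cerebellum the median moves to near 0 without KO 3, and in cortex it falls below 0 without KO 1, while all 60 members lie above 0 without KO 2.

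In cortex, none of the 65 members tested was called either, where the share over all genes was 0.00548%, again Snx14 alone. No member reached an unadjusted p under 0.05, against 2.24% of all genes higher and 2.26% lower (4.5% in all), and DESeq2 called none of them and 16 genes in all. The smallest p values were those of Cox6a2 (log2 fold change 0.38 ± 0.20 SE), Ndufv1 (0.15 ± 0.08 SE), Cox4i1 (0.13 ± 0.08 SE), Uqcrc1 (0.11 ± 0.06 SE) and Ndufa10 (0.12 ± 0.07 SE), with the same adjusted p for each (0.996, edgeR). Uqcrc1, with 246, 245 and 251 CPM in Snx14-KO and 229, 235 and 226 CPM in WT cortex, was the 1 member whose groups did not overlap, against 4.57% of all genes higher in this way. None was lower in this way, against 4.67% of all genes. Sdha had 391.6, 363.7 and 402.4 CPM in Snx14-KO cortex and Ndufa1 had 57.2, 38.7 and 42.9 CPM, both overlapping the WT values.

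The median log2 fold change over the members in cortex was 0.04, with 48 of 65 positive. Snx14-KO cortex 1 had the highest level of the 6 cortices for 40 members and Snx14-KO cortex 2 the lowest for 44. Without cortex 1, 20 of 65 members were positive and the median was -0.03. Without cortex 2, 63 were positive and the median was 0.11. In Snx14-KO cortex 2, the meningeal genes summed to 394 CPM, against 106 to 154 in the other 5 cortices, and the oligodendrocyte genes to 5620 CPM, against 7291 to 8190. By genotype, all 11 meningeal genes had a positive log2 fold change (median 0.59), 6 at an unadjusted p under 0.05 (edgeR). All 10 oligodendrocyte genes had a negative one (median -0.27), 8 at an unadjusted p under 0.05 (edgeR). None of either list was called. Their part in the members' levels was not tested.

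The effect of the knockout was not shown to differ between the regions. In the test of the difference over all 12 libraries, 0 of 67 members and 0 of 19380 genes were called by edgeR's quasi-likelihood test. Without the filter on low counts, 418 genes were called, 1 of them a member, Cox6a2 (adjusted p = 0.00385, edgeR). At an unadjusted p under 0.05 there was 1 member, higher, against 5.68% of all genes in either direction and 3.97% higher, and DESeq2 called 0 members and 36 genes. The median difference, cerebellum minus cortex, was -0.14 on the log2 scale, with 62 of 67 members negative, and stayed between -0.20 and -0.04 when 1 library was left out. The member with the smallest p was Cox6a2 (2.00 ± 0.80 SE, adjusted p = 0.764, edgeR), whose value was 0.85 without Snx14-KO cerebellum 3, the library with 47 counts. Cox6a2 entered this test through cortex and Cox7b2 through WT cerebellum, where each was high, so their values are descriptions. The next smallest p values were those of the membrane arm subunits Ndufb7 (-0.24 ± 0.11 SE) and Ndufb10 (-0.19 ± 0.10 SE), of Cox7b2 (-2.24 ± 1.25 SE) and of Ndufc1 (-0.26 ± 0.15 SE), none under an unadjusted 0.05 by edgeR. For the abundant markers, the 95% intervals of the difference were -0.24 to 0.16 for Sdha, -0.30 to 0.09 for Uqcrc1, -0.49 to 0.06 for Cox4i1 and -0.74 to 0.26 for Ndufa1.

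Some members share sequence with other genes, and how this affects their counts was not measured. Of the 100-base windows in the longest coding transcript, 33.4% of those of Ndufb4 also occur in Ndufb4c, 28.2% of those of Ndufb6 in Smim27 and 24.0% of those of Ndufa13 in Tssk6. Smim27 and Tssk6 overlap these members at the same locus, where a read pair is counted for both genes. For Uqcrc2 the share was 22.7%, and for Ndufs3, Ndufs5, Cox7c and Ndufa12 it was 17.7% to 19.9%. Among the markers, no such window was found for Ndufa1, Sdha or Uqcrc1, while 8.26% of those of Cox4i1 also occur in Emc8.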

How the data were processed

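RNA-Seq of cerebellum and cortex from 3 WT and 3 Snx14-KO mice was analysed from the counts that the authors deposited. Per the file headers and the study's methods, the authors mapped trimmed read pairs to GRCm38 with STAR and counted pairs per gene with featureCounts (Subread 2.0.1) without strand, counting a pair for every gene it overlaps and leaving out multi-mapped pairs. Genes antisense to a member can therefore share its reads. Raw counts were filtered with filterByExpr, normalized by TMM and tested with edgeR 4.0.16 (R 4.3.3, quasi-likelihood test, Benjamini-Hochberg adjustment over all genes tested), within each region for genotype and within each genotype for region, and over all 12 libraries for the difference of the genotype effects. Log2 fold changes are edgeR's, and their standard errors were derived from the F statistic. Levels are CPM, or FPKM on the exon length in the files. Numbered features without a gene ID, 0.0506% to 0.0632% of counts, and spike-in rows, at 0 counts, were left out. DESeq2 1.42.0, median-of-ratios scaling, no filter, a replicate block, 1 fit of all libraries and leaving out each library were the alternatives. On counts simulated from these libraries, the test recovered 73% of 200 genes changed 2-fold among 18201 genes for genotype in cerebellum, 83% of 200 among 18255 in cortex, 83.5% of 200 among 18543 for region in WT mice, 77.5% of 200 among 18542 for region in Snx14-KO mice and 62.5% of 200 among 19380 for the difference of the genotype effects. The share of calls that were false was 4.6% to 10.1%.

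The titles give both regions of a genotype the same mouse numbers, so the block for region is the mouse. The correlation of deviations between the regions of a mouse was 0.103, 0.113 and 0.0767 in WT and 0.295, 0.0249 and 0.0825 in Snx14-KO mice. No replicates were near-identical. The lists and members were chosen with earlier results of these data known. Named members are the 4 markers, the core or catalytic subunits of complexes I to III, the complex IV isoform pairs, up to 6 called members per direction with the largest regional change in WT mice, and the 5 members with the smallest p in each genotype comparison and in the test of the difference. Any other named member was chosen with its values in view, as were the length classes and ribosomal genes. Replicates are separate mice. The values of 1 member are not reported here on their own, though counts and sums over the members include it. Depth was 16672589 to 19887427 counts per library.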

Additional observations from a re-analysis of the deposited data

How the results depend on the processing

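In WT mice, 57 to 59 members were called higher in cerebellum under every alternative run, single libraries left out included (median log2 fold change 0.46 to 0.52 without 1 library), and 2 were called lower, while 9645 to 11493 of all genes were called. In Snx14-KO mice the count was 35 to 49 without 1 library (median 0.29 to 0.45), 42 with median-of-ratios scaling and 48 with all 12 libraries in 1 fit. With the mouse as a block, the pairing gave 59 and 43 members. Members called lower numbered 1 to 2 without 1 library. Cox6a1, near 0, changed sign in Snx14-KO mice to -0.0051 with median-of-ratios scaling, -0.0064 without the filter, -0.0051 with DESeq2 and -0.0031 with all 12 libraries (the cause was not tested). Without 1 library it ranged from -0.0769 to 0.10 there and -0.0656 to 0.0953 in WT mice, and Cox8a from -0.235 to 0.0319 and -0.0429 to 0.160. Sdhb in WT mice missed the threshold without the filter (adjusted p = 0.0562, edgeR) and in the fit of all 12 libraries (adjusted p = 0.0641, edgeR).

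For genotype, 0 members were called under every alternative, with medians of -0.12 to -0.006 in cerebellum and -0.03 to 0.11 in cortex without 1 library. Replicate numbers of different mice do not pair across genotypes (correlations -0.00804 to 0.0751 in cerebellum and -0.0426 to 0.112 in cortex), and the replicate block left 0 members called. Signs turned without 1 library for Uqcrc1 (-0.0268 to 0.0526), Ndufa1 (-0.303 to 0.0128) and Cox4i1 (-0.128 to 0.00221) in cerebellum, for Sdha (-0.0353 to 0.0471) and Ndufa1 (-0.0887 to 0.207) in cortex, and for Sdha (-0.0789 to 0.0184) in the difference between regions. The number of all genes called depended on the setting, with 389 in cerebellum and 218 in cortex without the filter, 206 and 16 by DESeq2, 50 and 2 with all 12 libraries, and 264 in cerebellum without Snx14-KO cerebellum 2. In the difference between regions, 1 member was called higher without the filter, Cox6a2 (2.01, adjusted p = 0.00385, edgeR), and 418 genes were. With the filter, its value was 0.85 without Snx14-KO cerebellum 3. Depth limits the restricted isoforms, which had under 200 counts in each library, and bulk tissue limits all values to the mixture of cells.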
